A study of Homo sapiens with 7 samples.

Results

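The genes described here encode the core machinery of RNA interference, the pathway by which a small interfering RNA (siRNA) silences its target. They were taken by name from the deposited count table: the Argonautes AGO1, AGO2, AGO3 and AGO4, the RNase DICER1 with its partners TARBP2 and PRKRA, and the scaffolds TNRC6A, TNRC6B and TNRC6C. All 10 had a row among the 60675 identifiers of the table, and all 10 were among the 16583 genes with enough counts to be tested. The cells were MDA-MB-231, a human triple-negative breast cancer line, given Lipofectamine RNAiMAX with control siRNA (siCTL, n = 3 libraries, labelled DEPDC1 WT) or DEPDC1 siRNA (siDEPDC1, n = 4 libraries, labelled DEPDC1 KD). Both groups therefore carried a transfected siRNA, 5 µl of a 20 µM stock, and both had fresh medium after 8 h and were harvested 2 days after transfection. An untransfected group was not analysed here, so the values compare 2 kinds of siRNA and not cells with and without one. The labels do not say that the libraries came from separate cultures, so each p-value reflects only how far these libraries spread, and that spread may be technical. In bulk RNA, fewer cells with a transcript and less of it per cell cannot be told apart.

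In this pathway Dicer cuts hairpins or long double-stranded RNA into short duplexes, with TARBP2 and PRKRA as its RNA-binding partners. A duplex is loaded into an Argonaute, which keeps 1 strand as a guide. A synthetic siRNA is already a short duplex and does not need Dicer's cut. AGO2 can slice a fully paired messenger RNA, while with partial pairing, as for microRNAs, Argonautes bring in a TNRC6 (GW182) protein, which in turn recruits the enzymes that shorten the poly(A) tail and remove the cap.

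Library totals ran from 7690583 to 15360409 counts, and a member had between 168 and 3821 counts in a library. Mean totals were 13628500 counts in siCTL and 10603100 in siDEPDC1 (two-sided exact permutation p = 0.114; groups of 3 and 4 cannot go below 0.0286). Levels below are in CPM, counts brought to one common library total, with TMM factors that adjust for the make-up of each library. DEPDC1, the siRNA target, was at 114 to 120 CPM in siCTL and 11.9 to 15.3 CPM in siDEPDC1 (log2 fold change -3.15 ± 0.075 SE, edgeR adjusted p = 1.2e-26). Of 5 genes known to be high in this line, VIM, CD44, FOSL1, EGFR and AXL, all were above 277 CPM in every library. EGFR was lower in siDEPDC1 (log2 -0.28, edgeR adjusted p = 0.00018) and FOSL1 higher (log2 0.16, edgeR adjusted p = 0.038). ESR1 and PGR, the hormone receptor genes, stayed below 0.66 CPM, and ERBB2 was at 61.7 to 70.6 CPM. CDH1, also low in this line, was at most 1.55 CPM and lower in siDEPDC1 (log2 -1.55, edgeR adjusted p = 0.0030). Of 6 markers of other cell types, none was at 0 in all libraries. Their summed level was 27.5 to 29.9 CPM in siCTL and 40.5 to 49.0 CPM in siDEPDC1, where COL1A1 was the main part with up to 32.3 CPM. COL1A1 was higher in siDEPDC1 (log2 1.22, edgeR adjusted p = 5.4e-13), as was CD14 (log2 0.60, edgeR adjusted p = 0.028), at 1.56 to 3.92 CPM. PECAM1 was at 9.78 to 14.2 CPM and did not pass the test. CD3E, CD79A and PTPRC stayed under 1.40 CPM. The part of these marker differences in the results below was not tested.

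Of the 10 genes, 4 were lower and 2 higher after DEPDC1 siRNA (edgeR's quasi-likelihood test, adjusted p under 0.05 by Benjamini-Hochberg over all genes tested). Among all tested genes 17.9% were lower and 16.5% higher, so 34.4% passed in either direction. The lower genes were TNRC6B, DICER1, AGO3 and TNRC6A and the higher ones TNRC6C and AGO2. The groups did not overlap in 3 of the 10, TNRC6B, DICER1 and TNRC6C, against 37.3% of all tested genes (19.6% lower and 17.7% higher). The median log2 fold change of the 10 was 0.046, beside 0.00094 over all tested genes, with a range from -0.66 to 0.49. Members of 1 family thus moved in opposite directions, and the changes were below 2-fold in each of them.

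**Figure D1:**
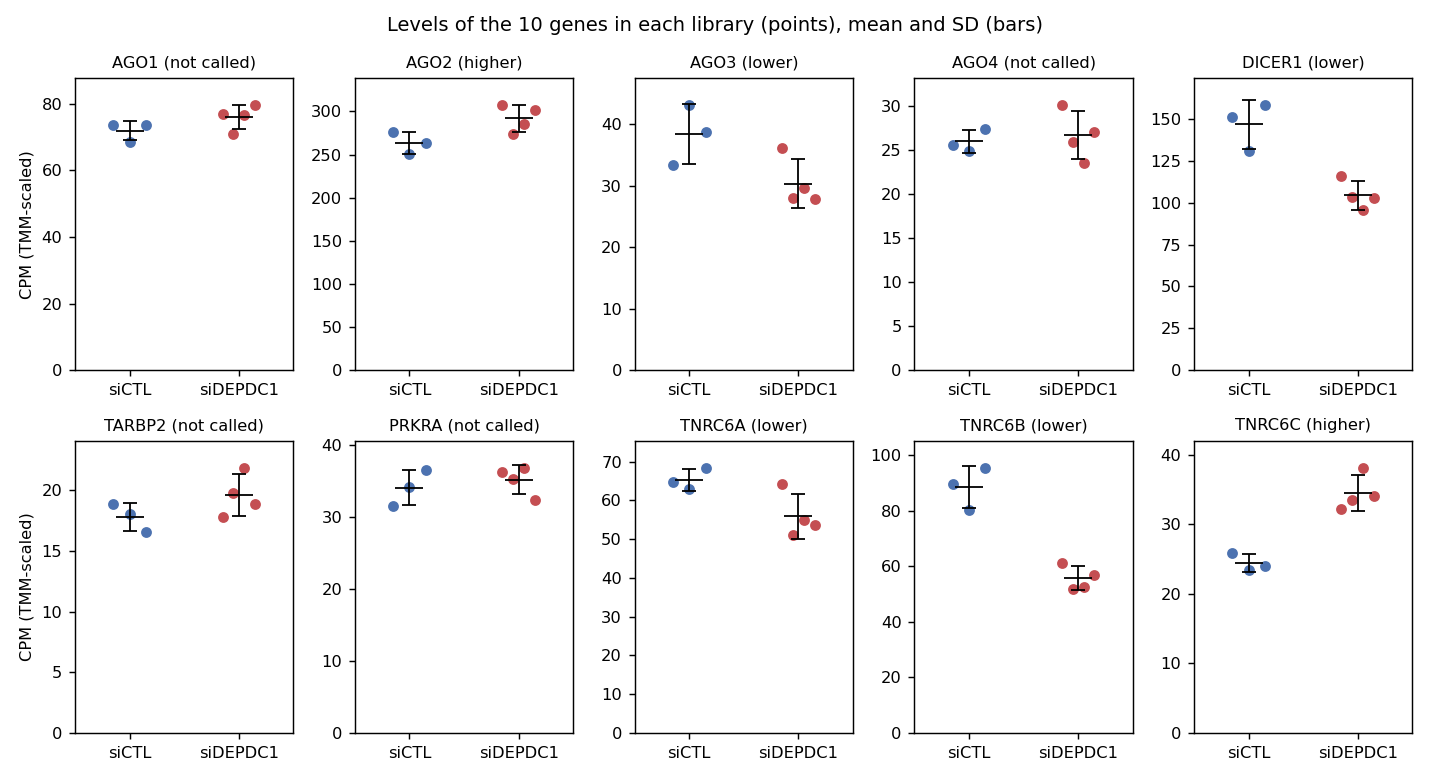
Level of each gene in each library, in TMM-scaled CPM on axes that start at 0. Points are libraries (3 siCTL in blue, 4 siDEPDC1 in red) and bars the mean and SD. The groups stand apart in DICER1, TNRC6B and TNRC6C and overlap in the other 7.

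The TNRC6 scaffolds, which link an Argonaute to the deadenylase complexes, held both the largest fall and the largest rise. TNRC6B (ENSG00000100354; GRCh38 chromosome 22, 40044817 to 40335808, plus strand) was at 89.6, 80.5 and 95.6 CPM in siCTL and at 61.3, 51.9, 52.7 and 56.9 CPM in siDEPDC1. Every siDEPDC1 library was below every siCTL library. The mean fell from 88.5 ± 7.60 (SD, n = 3) to 55.7 ± 4.33 CPM (SD, n = 4), a log2 fold change of -0.66 ± 0.068 (SE; edgeR adjusted p = 1.1e-09), or 1.59-fold.

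TNRC6C (ENSG00000078687; chromosome 17, 77959240 to 78108835, plus strand) moved the other way. It was at 25.9, 23.4 and 24.1 CPM in siCTL and at 32.2, 33.4, 38.2 and 34.1 CPM in siDEPDC1, with no overlap. The rise from 24.5 ± 1.30 to 34.5 ± 2.58 CPM was 1.40-fold (log2 0.49 ± 0.079 SE, edgeR adjusted p = 7.1e-06). Among all tested genes, 5.07% were called higher by at least this much. A gene on the opposite strand, TNRC6C-AS1, shares 1438 exon bases with TNRC6C and was not analysed here. The strand setting of the counting is unstated, so reads of the pair cannot be told apart.

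TNRC6A (ENSG00000090905; chromosome 16, 24610209 to 24827632, plus strand) changed least of the 3. Its level was 64.7, 62.9 and 68.5 CPM in siCTL and 64.3, 51.0, 54.8 and 53.7 CPM in siDEPDC1. The first siDEPDC1 library lay inside the siCTL range and the other 3 below it. The fall of 1.17-fold (log2 -0.23 ± 0.070 SE, edgeR adjusted p = 0.012) was lost without siDEPDC1 replicate 2 (edgeR adjusted p = 0.083).

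Together the 3 scaffolds summed to 178 ± 10.8 CPM in siCTL and 146 ± 8.83 CPM in siDEPDC1, and the groups did not overlap. Their balance shifted as well. TNRC6B made up 48.2% to 50.8% of the TNRC6 counts in siCTL and 36.2% to 39.3% in siDEPDC1, while TNRC6C went from 12.8% to 14.4% up to 20.4% to 26.2%. TNRC6A kept 35.9% to 37.7% in siCTL and 37.1% to 40.7% in siDEPDC1. Put as a ratio of CPM, TNRC6B was 3.62 ± 0.304 times TNRC6C in siCTL and 1.63 ± 0.220 times in siDEPDC1. Longer transcripts give more counts, so these shares describe a shift between groups and not the relative number of molecules.

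**Figure D2:**
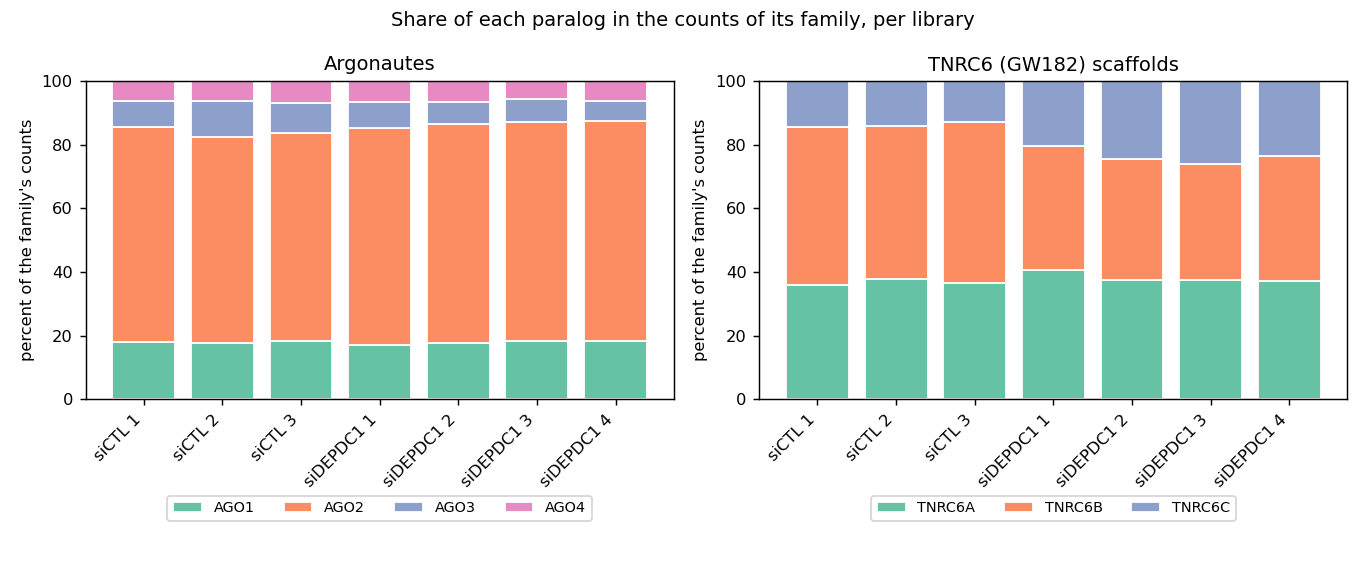
Share of each paralog in the counts of the Argonaute family (left) and the TNRC6 family (right), in percent, for each of the 7 libraries. In the TNRC6 panel the TNRC6C segment is 12.8% to 14.4% in siCTL and 20.4% to 26.2% in siDEPDC1. The Argonaute panel changes little, with AGO2 at 64.8% to 69.1% throughout.

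DICER1 (ENSG00000100697; chromosome 14, 95086228 to 95158010, minus strand), the RNase III enzyme that makes small RNA duplexes, fell. Its level was 151, 131 and 158 CPM in siCTL and 116, 103, 95.6 and 103 CPM in siDEPDC1. The highest siDEPDC1 library was below the lowest siCTL library. The mean went from 147 ± 14.4 to 104 ± 8.54 CPM, a fall of 1.40-fold (log2 -0.49 ± 0.066 SE, edgeR adjusted p = 3.5e-07). Among all tested genes, 6.39% were called lower by at least this much. DICER1-AS1, which shares 80 exon bases with DICER1 on the other strand, had at most 19 counts in a library.

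The RNA-binding partners of Dicer did not pass the test. TARBP2 (ENSG00000139546; chromosome 12, 53500921 to 53506431), which helps Dicer hand a duplex to an Argonaute, ranged from 16.6 to 18.9 CPM in siCTL and from 17.8 to 21.9 CPM in siDEPDC1. Its log2 fold change of 0.13 had a 95% interval from -0.051 to 0.30 (edgeR adjusted p = 0.30). PRKRA (ENSG00000180228; chromosome 2, 178431414 to 178451512), known as PACT, which also activates the kinase PKR, ranged from 31.6 to 36.5 and from 32.3 to 36.9 CPM. Its log2 fold change of 0.046 had an interval from -0.10 to 0.19 (edgeR adjusted p = 0.68). For both genes the groups overlapped, and both upper bounds lie above the change called in AGO2 below. PRKRA shares 85 exon bases with the antisense gene CHROMR, which had a median of 261 counts a library and was lower (log2 -0.28, edgeR adjusted p = 0.012), so reads of the 2 may be mixed.

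Among the Argonautes, which hold the guide strand, AGO2 was by far the most abundant and rose slightly. AGO2 (ENSG00000123908; chromosome 8), the slicing member, was at 276, 251 and 263 CPM in siCTL and at 308, 274, 285 and 301 CPM in siDEPDC1. The lowest siDEPDC1 library lay within the siCTL range. Its rise of 1.11-fold (log2 0.15 ± 0.056 SE, edgeR adjusted p = 0.038) was the weakest call of the 6. It was lost without siCTL replicate 2 (edgeR adjusted p = 0.23), siCTL replicate 3 (0.080), siDEPDC1 replicate 1 (0.064), siDEPDC1 replicate 3 (0.051) or siDEPDC1 replicate 4 (0.061). It was also lost with no count filter (0.11) and at the depth of the smallest library (0.070). Over all 16 alternatives, edgeR, DESeq2 and limma adjusted p ran from 0.012 to 0.23.

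AGO3 (ENSG00000126070; chromosome 1, 35930718 to 36072500, plus strand) fell. It was at 33.4, 43.1 and 38.7 CPM in siCTL and at 36.1, 27.9, 29.6 and 27.8 CPM in siDEPDC1. Only siDEPDC1 replicate 1 overlapped the siCTL range. The fall was 1.27-fold (log2 -0.35 ± 0.089 SE, edgeR adjusted p = 0.0026), and it passed the test in all 16 alternatives, with edgeR, DESeq2 or limma adjusted p of at most 0.049.

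AGO1 and AGO4, its neighbours in a cluster of 3 Argonaute genes on chromosome 1, did not pass the test. The order on the plus strand is AGO4 (ENSG00000134698; 35808172 to 35857890), AGO1 (ENSG00000092847; 35869808 to 35930528) and AGO3. AGO1 ranged from 68.5 to 73.5 CPM in siCTL and from 70.9 to 79.6 CPM in siDEPDC1 (log2 0.081, 95% interval -0.040 to 0.20, edgeR adjusted p = 0.33). AGO4 ranged from 24.9 to 27.5 and from 23.6 to 30.1 CPM (log2 0.046, 95% interval -0.12 to 0.21, edgeR adjusted p = 0.70). Of the 3 neighbours, AGO3 alone passed the test, and the difference between neighbours was itself not tested. Summed over the family, Argonaute levels were 399 ± 10.9 CPM in siCTL and 425 ± 23.0 CPM in siDEPDC1, with overlap. AGO2 held 64.8% to 67.5% of the family's counts in siCTL and 68.3% to 69.1% in siDEPDC1, and AGO3 8.19% to 11.1% and 6.38% to 8.01%. Both shares stood apart between the groups, by a narrow margin.

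**Figure D3:**
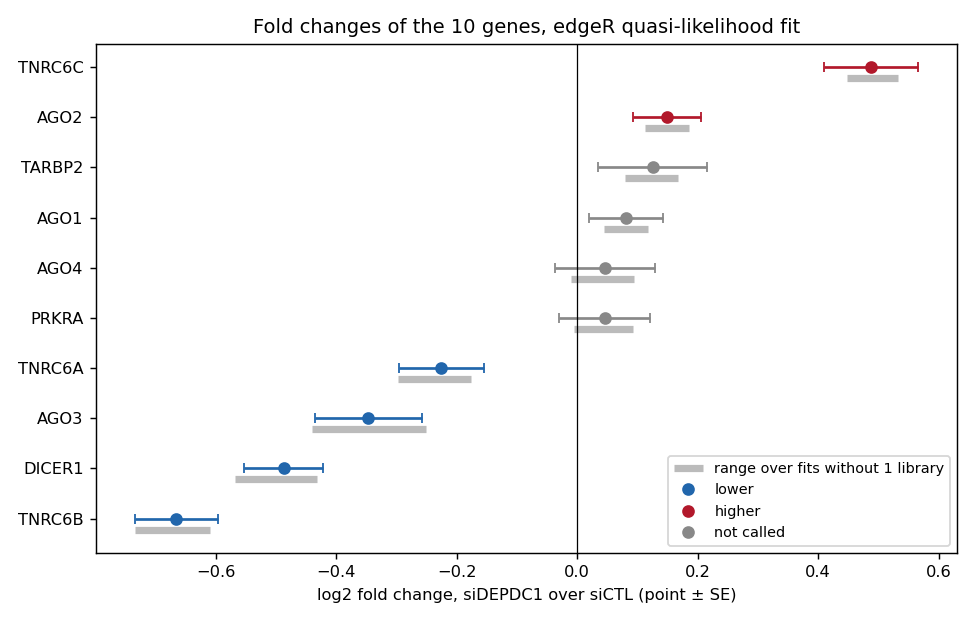
Log2 fold change of each gene, siDEPDC1 over siCTL, as a point with its SE, coloured by its call, and below it in grey the range over the 7 fits that each leave out 1 library. The grey ranges of AGO4 and PRKRA cross 0, and those of the 6 called genes keep their sign.

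Set side by side per length, the order of the genes was led by AGO2. Divided by the mean length of its annotated protein-coding transcripts, AGO2 had 43.8 ± 2.08 CPM per kilobase in siCTL, followed by DICER1 with 27.4 ± 2.70 and PRKRA with 25.6 ± 1.84, which overlapped within their SD. TARBP2 (15.4 ± 0.990) and TNRC6A (15.1 ± 0.657) could not be ranked against each other, nor TNRC6B (8.74 ± 0.751) and AGO1 (8.11 ± 0.327). AGO3 followed with 5.99 ± 0.755, and TNRC6C (3.84 ± 0.203) and AGO4 (3.65 ± 0.186) were lowest. In siDEPDC1 DICER1 had 19.5 ± 1.60 CPM per kilobase, below PRKRA with 26.4 ± 1.51. TNRC6B (5.50 ± 0.427) and TNRC6C (5.40 ± 0.405) were then level with each other. The order depends on the transcript assumed: with the longest transcript PRKRA (18.7 ± 1.34) and AGO2 (18.1 ± 0.857) led in siCTL, above DICER1 (14.2 ± 1.40). AGO3, whose longest transcript is 19.7 kb, was then last with 1.95 ± 0.246. In siDEPDC1 TNRC6C (3.54 ± 0.265) was above TNRC6B (3.05 ± 0.237) by that length.

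Libraries of a group differed in the same direction for many of these genes. In siCTL, replicate 2 had the lowest level in 7 of the 10 genes, AGO3 being the exception in which it was highest. In siDEPDC1, replicate 1 had the highest level in 6 of the 10. The genes whose level over the 7 libraries was most like that of TNRC6B, by Pearson correlation of log2 CPM, were HIVEP2 (0.9985), CBX5 (0.9934) and PARP14 (0.9933). These are a zinc finger transcription factor, a heterochromatin protein and an ADP-ribosyltransferase, and their log2 fold changes lay between -0.55 and -0.61. Those most like TNRC6C were TMEM164 (0.9986), LYL1 (0.9979) and E2F2 (0.9965), with log2 fold changes of 0.14, 0.39 and 0.50. TMEM164 did not pass the test (edgeR adjusted p = 0.064), and LYL1 was low, at 6.43 CPM in siCTL and 8.49 CPM in siDEPDC1. All points of these correlations share the same 7 libraries and the split into groups.

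A 7-base word of the messenger RNA was looked for in the 10 genes. Each such word in the 3′ untranslated regions (UTRs) of 12215 genes outside all lists here was scored by the fold changes of its carriers. With 3′ UTR length held level, GATAACT had the lowest score of 15745 words. The next in rank, ATAACTA (1162 carriers) and ATAACTT (1800 carriers), overlap it by ATAACT. The carriers of GATAACT were chosen by these fold changes, so their values are a description. A 3′ UTR copy was found in 7.71% of the searched genes. Of these carriers 54.2% were lower, against 17.5% of genes without a 3′ UTR copy. GATAACT is found in 5 of the 10 genes. TNRC6B and AGO2 hold it in the 3′ UTR, and AGO3, TNRC6A and TNRC6C in the coding part only. Of the 12215 genes outside the lists, 942 had a 3′ UTR copy and 639 a coding copy only. The sites of 4 of the 5 genes are shown, that of AGO2 being left out. They are given because the gene that fell most carries the word 2 times, with the word in capitals, 5′ to 3′ on the messenger strand, GRCh38:
TNRC6B, 3′ UTR, chr22:40324375-40324404: tgggaacggaaGATAACTtttgatgatgcg
TNRC6B, 3′ UTR, chr22:40332815-40332844: gtaaatagcagGATAACTttaaaaaacatt
AGO3, coding exon 18 of 19, chr1:36054974-36055003: ttttatgggatGATAACTgctttactgcag
TNRC6A, coding exon 6 of 25, chr16:24791194-24791223: tttctgccagtGATAACTggggagaaactt
TNRC6C, coding exon 14 of 21, chr17:78091545-78091574: ccaactccatgGATAACTtgcccagtgccg
DEPDC1, the siRNA target, across the stop codon, chr1:68476918-68476947: ccgtagtctaaGATAACTaactgaattaaa

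Carriers of the word were found among both the lower and the higher of the 10 genes. TNRC6B, with its copies 1145 and 9585 bases after the stop codon, was lower. AGO2, with 1 copy 11292 bases after the stop codon, was higher, a call lost in 9 of 16 alternatives. Of the 3 genes with a coding copy, AGO3 and TNRC6A were lower and TNRC6C was higher. Among the 639 genes outside the lists with a coding copy only, 35.5% were lower and 10.6% higher. DICER1 was lower, and the word was found in neither the coding part nor the 3′ UTR of its 7 annotated transcripts searched. Of genes outside the lists without a copy in these regions, 4.71% had a lower fold change. AGO1, AGO4, TARBP2 and PRKRA had no copy and did not pass the test. Long 3′ UTRs hold the word often: of 111 genes outside the lists with a 3′ UTR of at least 10 kb, as in TNRC6B, AGO1, AGO2 and AGO3, 52.3% had a copy. Their median log2 fold change was -0.059 with a copy and -0.027 without. With a copy 32.8% were lower and 20.7% higher, and without one 22.6% and 18.9%. Among 2370 named human mature microRNAs in RefSeq (GRCh38.p14), 1 has a seed, bases 2 to 8, that pairs with the word, shown here with the seed in capitals:
hsa-miR-101-5p: cAGUUAUCacagugcugaugcu
Mature microRNAs were not measured in these libraries, and the DEPDC1 siRNA's own sequence is not given in the labels. The part of either in these changes was not tested.

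**Figure D4:**
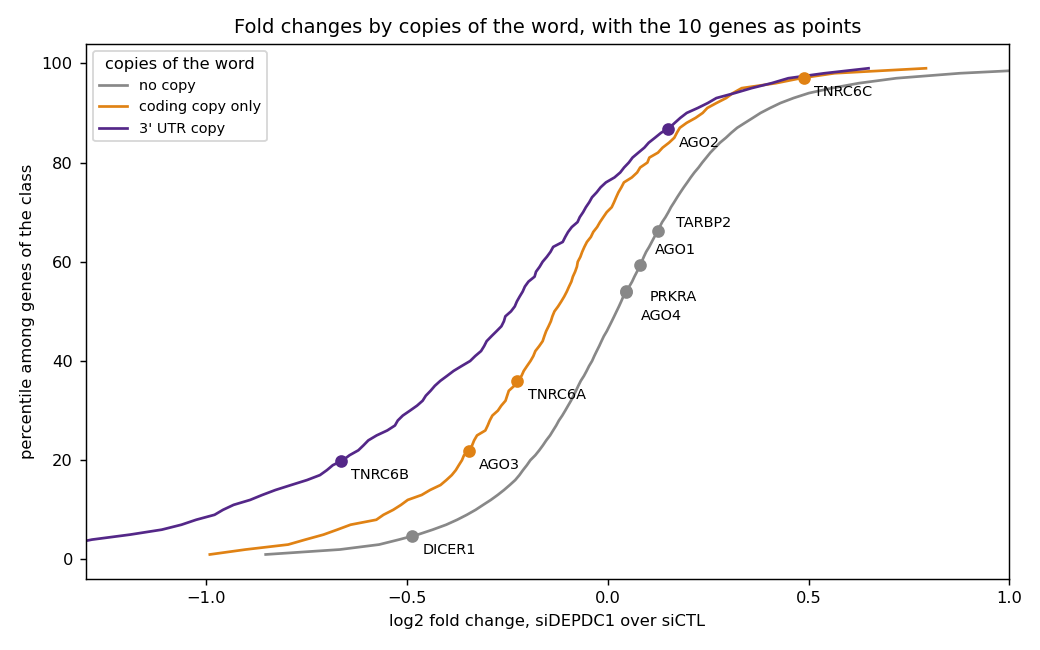
Cumulative distribution of log2 fold changes, siDEPDC1 over siCTL, for searched genes outside the lists with no coding or 3′ UTR copy of the word (grey, 10634 genes), a coding copy only (orange, 639) or a 3′ UTR copy (purple, 942), with the 10 genes as points on the curve of their class. TNRC6B lies low and AGO2 high on the purple curve, and DICER1 near the bottom of the grey one.

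The rest of the pathway was described by 7 further lists of 101 genes, of which 96 were tested. Of these, 21 were lower and 13 higher (35.4%, beside 34.4% of all tested genes), with a median log2 fold change of -0.034. Scaled by library size alone the counts were 17 and 17. With no count filter they were 20 and 7. The 13 higher genes numbered 8 without siCTL replicate 1, 6 without siCTL replicate 2 and 8 without siDEPDC1 replicate 2. The 21 lower genes numbered 16 with DESeq2 and without siCTL replicate 1 or siDEPDC1 replicate 4, and 26 without siDEPDC1 replicate 1. The germline PIWI genes, relatives of the Argonautes, were at or near 0, with at most 1 count a library for PIWIL1 and PIWIL3, at most 6 for PIWIL2 and at most 15 for PIWIL4.

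Upstream of Dicer, 4 of 9 genes of hairpin processing and export were lower and none higher, with a median of -0.051. The lower genes were 44.4% of this list, beside 17.9% lower and 16.5% higher among all tested genes. The 4 became 2 without siCTL replicate 1, 2 or 3 or siDEPDC1 replicate 4, and also with DESeq2, library size alone or a stricter filter of 50 counts. XPO5, the exporter of hairpin precursors, fell from 187 ± 4.15 to 128 ± 4.45 CPM (log2 -0.55 ± 0.055 SE, edgeR adjusted p = 6.1e-10). Its partner RAN, the GTPase that drives nuclear transport, fell 1.24-fold from 315 ± 8.44 to 253 ± 9.98 CPM. DROSHA, the nuclear RNase of the first cut, did not pass the test, and its partner DGCR8 fell 1.13-fold (edgeR adjusted p = 0.042). The cap-binding gene NCBP2 was lower with a similar p (0.042, edgeR), a call lost in 10 of 16 alternatives. XPO5 and RAN kept their calls in all 16, so both DGCR8 and NCBP2 lost theirs wherever the 4 became 2. The call of DGCR8 was also lost without siDEPDC1 replicate 1 or 2, with no count filter and at the depth of the smallest library. In those fits 3 genes of the list were lower, NCBP2 among them. The RNA helicase DDX5 was at 669 ± 16.4 and 679 ± 17.6 CPM.

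Of 10 genes of guide loading and passenger strand removal, 3 were lower and 1 higher, with a median of -0.056. That is 30% and 10%, beside 17.9% and 16.5% of all tested genes. Without siDEPDC1 replicate 1 the higher genes numbered 2, and without siDEPDC1 replicate 4 they numbered 3. DNAJA2, a co-chaperone of HSC70, fell 1.55-fold from 74.6 ± 1.95 to 48.1 ± 1.25 CPM. The HSP90 co-chaperones went opposite ways: FKBP5 fell 1.60-fold (44.8 ± 1.94 to 28.1 ± 3.06 CPM) and FKBP4 rose 1.32-fold (80.7 ± 3.83 to 107 ± 5.33 CPM). The chaperone gene HSP90AB1 was at 2131 ± 14.0 and 2027 ± 98.4 CPM and did not pass the test. Both FKBP genes carry the word in a 3′ UTR.

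Among 19 tested partners and regulators of Argonaute, 4 were lower and 6 higher, with a median of 0.019. These shares were 21.1% and 31.6%, beside 17.9% and 16.5% of all tested genes. With a library left out, the higher genes numbered 4 to 7, and the lower ones stayed at 4. CSNK1A1, the kinase that phosphorylates AGO2, fell 1.79-fold from 141 ± 5.58 to 78.7 ± 4.01 CPM (edgeR adjusted p = 1.1e-13). P4HA1, a subunit of the prolyl hydroxylase that modifies AGO2 as well as collagen, rose 1.42-fold from 98.0 ± 3.70 to 139 ± 11.8 CPM. Its partner subunit P4HB rose 1.14-fold to 917 ± 61.3 CPM. WTIP, a LIM domain protein that binds Argonaute, rose 1.47-fold from 9.99 ± 0.408 CPM, while its relative LIMD1 fell 1.15-fold. The RNA-binding protein PUM2 fell 1.21-fold.

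Downstream, deadenylation genes moved least. Of 20 tested, none was lower and 2 were higher, with log2 fold changes from -0.15 to 0.20 and a median of -0.034. CNOT9, a subunit of the CCR4-NOT complex that binds TNRC6, rose 1.12-fold (edgeR adjusted p = 0.027), and BTG3 1.15-fold (edgeR adjusted p = 0.031). These calls were lost in 5 and 6 of 16 alternatives. The list had no higher gene when siCTL replicate 1 or 2 or siDEPDC1 replicate 2 was left out and 1 without siDEPDC1 replicate 3, and it had 1 lower gene without siDEPDC1 replicate 1. At an edgeR adjusted p under 0.05, 10% of the list passed, beside 34.4% of all tested genes. CNOT1, the scaffold of the complex, was at 432 ± 28.6 and 416 ± 21.3 CPM and the poly(A)-binding protein gene PABPC1 at 1107 ± 0.904 and 1153 ± 40.9 CPM, and neither passed.

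Of 15 decapping genes 4 fell and 2 rose, and the median of the 15 was -0.0011. That is 26.7% lower and 13.3% higher, beside 17.9% and 16.5% of all tested genes. The lower genes numbered 2 without siCTL replicate 1, siDEPDC1 replicate 2 or siDEPDC1 replicate 4 or with DESeq2, and 6 without siDEPDC1 replicate 1. The higher genes numbered 1 without siCTL replicate 2 or 3 or siDEPDC1 replicate 1 or 2. DCP2, the decapping enzyme and a carrier of the word in its 3′ UTR, fell 1.74-fold from 108 ± 4.01 to 61.8 ± 5.97 CPM (edgeR adjusted p = 4.2e-12). EIF4E2, a cap-binding repressor of translation, rose 1.30-fold from 69.1 ± 4.15 to 89.7 ± 6.59 CPM, and DCP1A, an activator of DCP2, 1.13-fold. LSM14B fell 1.19-fold, and the helicase DDX6, at 184 ± 14.1 and 171 ± 11.1 CPM, did not pass the test. The call of DCP1A was lost in 8 of 16 alternatives.

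In hairpin tailing, editing and turnover, 5 of 13 tested genes were lower and none higher, with a median of -0.14. The lower genes were 38.5% of the list, beside 17.9% lower and 16.5% higher among all tested genes. With a library left out they numbered 4 to 7. ADAR, which edits adenosine in double-stranded RNA, fell 1.28-fold from 372 ± 12.1 to 291 ± 11.2 CPM, the uridylyl transferase TUT7 1.29-fold and the RNA methyltransferase METTL3 1.23-fold. HNRNPA1, which binds microRNA hairpins, was at 730.2 ± 20.2 and 761 ± 27.7 CPM and did not pass. LIN28B and HENMT1 had no count in any library. Of 10 genes that bind or carry double-stranded RNA, 1 was lower and 2 higher, with a median of 0.043. These are 10% and 20%, beside 17.9% and 16.5% of all tested genes. The lower genes numbered 2 without siCTL replicate 3 or siDEPDC1 replicate 1. None was higher without siCTL replicate 2, and 1 was without siCTL replicate 1 or siDEPDC1 replicate 1, 2 or 3. The helicase DHX9 fell 1.18-fold, SIDT1, a transmembrane protein, rose 1.65-fold from only 1.49 ± 0.246 CPM, and STAU2 rose 1.17-fold, the last 2 losing their calls in 3 of 15 and 8 of 16 alternatives.

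**Figure D5:**
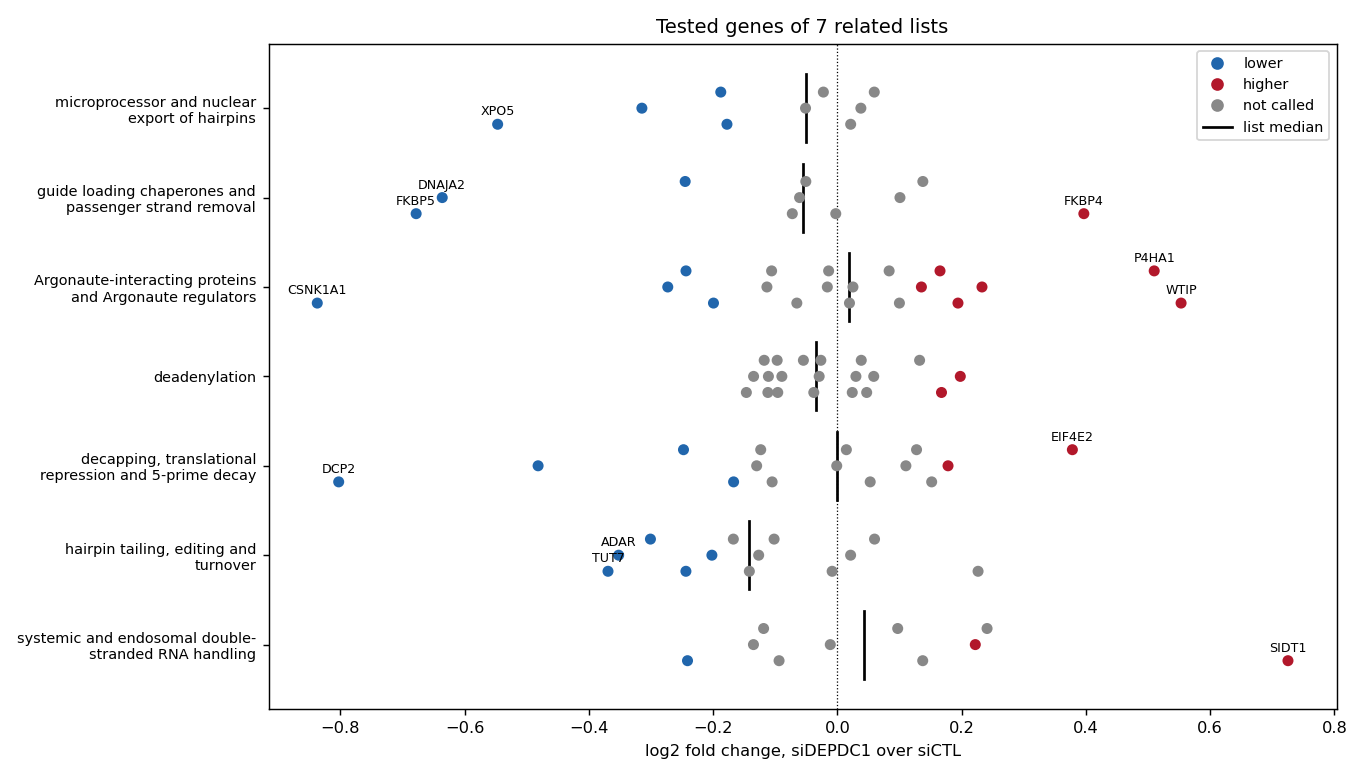
Log2 fold change, siDEPDC1 over siCTL, of each tested gene of the 7 related lists, coloured by its call, with the list median as a black line and called genes named by the rule labelled where the change exceeds 0.35 on the log2 scale. DCP2 and CSNK1A1 lie farthest to the left, and the deadenylation genes stay between -0.15 and 0.20.

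Of the 8 tested related genes with the word in a 3′ UTR of any isoform, 2 were lower (FKBP5 and DCP2) and 2 higher (FKBP4 and CNOT9). CNOT9 and CELF1 lack it in the 1 transcript per gene used for the scan. All shares outside the lists given here rest on that 1 transcript. Among 3′ UTR carriers outside the lists 54.2% were lower and 8.17% higher, and the word was chosen by their fold changes. Of the 6 with a coding copy only, 3 were lower (IPO8, CSNK1A1 and ADAR), beside 35.5%. Of the 82 with no copy lying within either region, 16 were lower and 11 higher, beside 16.4% and 20.2%. XPO5 and DNAJA2 were among the 16, as was TENT2, a poly(A) polymerase gene whose copy lies across the stop codon as in DEPDC1.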

How the data were processed

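Per the labels' protocols, sequencing used TruSeq RNA libraries and paired reads of 100 bases. The authors deposited raw counts per Ensembl gene and library. Per the submitters' processing notes, DESeq2, FastQC and STAR 2.7.9a were used with build GRCh38; their roles are unstated. For the read counter, annotation release and strand setting: not given in the sources used here.

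From these counts, genes were kept by edgeR's filterByExpr defaults by group and fitted in R 4.3.3 by edgeR 4.0.16 (TMM; robust glmQLFit; two-sided glmQLFTest; Benjamini-Hochberg adjustment over 16583 genes; threshold 0.05). The SE is that implied by the F statistic, and 95% intervals are normal ones from it. Symbols were found for 60419 identifiers. Places, lengths and sequences are from GENCODE 29, 1 transcript per gene for the word scan (best APPRIS level, then longest). The fit and the word scan were tested on simulated data. DESeq2 1.42.0, limma 3.58.1 (voom), other scalings and filters, a replicate block, thinning and leaving out each library were alternatives. Library pairs of a group differed by 1.68 to 4.68 times the counting variance per gene, so none was taken as deposited 2 times.

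The members and lists were chosen with earlier results of these data known. Named from each related list were up to 3 called genes of smallest p, up to 2 called genes against the list's majority and the gene of highest level, 1 of which is not reported here. Others (DROSHA, DGCR8, LIMD1, CNOT1, LIN28B, HENMT1, IPO8, TENT2, CELF1) were named after their values were seen. The word scan was added after seeing the data.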

Additional observations from a re-analysis of the deposited data

Results flagged for a closer look

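In 3 sets of 4 siDEPDC1 values, 1 library lay far from the other 3, by a gap to its neighbour above Dixon's critical share of the whole range; 50 sets were examined. TNRC6A made up 40.7% of the TNRC6 counts in siDEPDC1 replicate 1, against 37.1% to 37.6% in the others. EIF4E2 was at 79.9 CPM in the same replicate, against 92.0 to 94.4 CPM. STAU2 was at 28.2 CPM in siDEPDC1 replicate 4, against 34.0 to 34.6 CPM. Chance flags about 1 in 20 sets.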

How the results depend on the processing

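Of the 10 core genes, DICER1, TNRC6B, TNRC6C and AGO3 kept their calls in all 16 alternatives, and AGO2 lost its call in 9 and TNRC6A in 1. The count of core genes called higher was 1 with no count filter, with the replicate block, in the same 6 libraries unpaired and at the depth of the smallest library, and 1 to 2 with a library left out. The count called lower was 3 to 4 with a library left out. Related genes called higher numbered 7 with no count filter and 6 to 16 with a library left out. Those called lower numbered 16 with DESeq2 and 16 to 26 with a library left out. AGO4 ran from -0.010 to 0.095 and PRKRA from -0.0046 to 0.092 on the log2 scale with a library left out, so both changed sign, without siDEPDC1 replicate 1 and siCTL replicate 1 respectively, and neither passed the test there. Libraries of the same number did not deviate together (correlations of -0.14, -0.045 and -0.0066), and no siCTL library correlated best with its own number. With the replicate block 2437 genes were lower and 2292 higher, against 2767 and 2627 in the same 6 libraries unpaired.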
